A study of Homo sapiens with 12 samples.

Results

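The namoline and TCE-5002 arms of C4-2 cells were laid out as a 2 by 2 cross, and the question put to the counts was where the effect of both inhibitors together departed from the sum of their separate effects. All 8 libraries titled LNCaP:C42, of 12 libraries in the series, were taken: 2 with the androgen R1881 alone, 2 with R1881 and namoline, 2 with R1881 and TCE-5002, and 2 with R1881 and both inhibitors (the combination). C4-2 is an established human prostate cancer line, derived from LNCaP, that grows without testicular androgen. Every group was kept in phenol red-free medium with hormone-depleted serum and received R1881 at 1 nM for 72 h, so no androgen-free group was compared. Namoline, an inhibitor of the lysine demethylase KDM1A, was given at 50 µM. The inhibitor TCE-5002, described as selective for KDM7A, is put at 100 µM in the series text and lower in the study's methods, so its dose is uncertain. A protocol field describes siRNA transfection, which no title mentions, and groups were read from the titles. The study's methods call the 2 libraries of a group biological replicates, while the labels do not say whether they came from separate cultures, so the p-values measure the spread between these libraries.

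KDM1A removes activating methyl marks from histone H3 and acts both as a corepressor subunit and, with steroid receptors, as a coactivator, whereas KDM7A is a Jumonji enzyme that removes repressive methyl marks from the same histone. In prostate cancer cells such enzymes are known as partners of androgen-driven transcription. When 2 agents act on a gene independently, their log2 changes add, and an interaction is the distance between the measured combination and that sum.

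Libraries held 14791602 to 20295282 gene counts. Replicates of a group correlated at r 0.991 to 0.997 across genes on the log2 scale of CPM, the counts of a gene relative to the scaled size of its library, where genes are not independent replicates. Of 9905 genes above 10 CPM, 53 differed by 2-fold or more between the TCE-5002 replicates and 2 to 8 between those of the other 3 groups. The identifiers of the TCE-5002 libraries are styled differently from the rest, the labels name no batch, and a difference in handling cannot be told apart from the treatment. Of 9 prostate luminal markers all 9 passed the filter on low counts, with none at 0 in any library, and their summed level was 3448 and 3564 CPM with R1881, 3576 and 3775 with namoline, 5034 and 5039 with TCE-5002, and 2231 and 2236 with the combination. Lymphoid markers summed to at most 0.842 CPM, with 0 of 8 tested and CD3E and CD2 at 0 in every library. Mesenchymal markers summed to 62.9 to 93.9 CPM with 4 of 10 tested and COL3A1 and LUM at 0, and neuroendocrine markers to 8.35 to 36.5 CPM with 2 of 8 tested and CHGB at 0. In bulk RNA, fewer cells of a kind and less RNA per cell cannot be told apart.

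On the first principal component, which carried 55.7% of the variance, the combination libraries lay at 64.1 and 69.7, the R1881 libraries at -4.0 and -4.9, and the 4 single-inhibitor libraries between -27.6 and -35.8. The single inhibitors therefore stood on the opposite side of R1881 from the combination. The second component, with 23.2%, set R1881 at 42.9 and 46.5 apart from all 6 treated libraries, at -10.9 to -20.7.

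**Figure D1:**
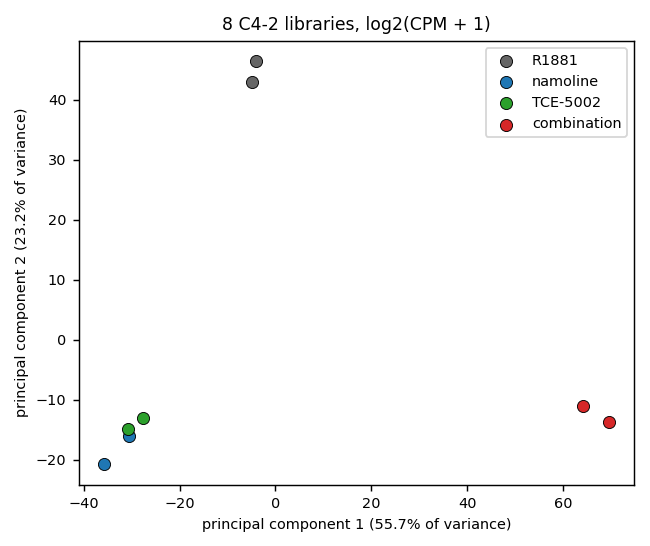
The 8 C4-2 libraries on the first and second principal components of log2 CPM (unitless scores, share of variance on each axis), 1 point per library and 1 colour per group. The combination libraries sit at 64.1 and 69.7 on the first axis and both single-inhibitor groups at the other end, between -27.6 and -35.8, with R1881 between them.

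The interaction was computed for 17702 genes as the combination's log2 change from R1881 less the sum of the changes with namoline and with TCE-5002, and was tested by the quasi-likelihood F test of edgeR. A gene was called at a Benjamini-Hochberg adjusted p under 0.05 over all genes tested and an absolute log2 value of at least 1. The interaction was called for 6255 genes (35.3% of those tested), 2966 above additivity (16.8%) and 3289 below it (18.6%). By the same rule namoline alone changed 2135 genes (12.1%), of which 914 rose (5.16%) and 1221 fell (6.9%). TCE-5002 alone changed 2107 (11.9%), 898 up (5.07%) and 1209 down (6.83%), and the combination changed 3844 (21.7%), 1576 up (8.9%) and 2268 down (12.8%). The combination differed from namoline alone in 4868 genes (27.5%) and from TCE-5002 alone in 4623 (26.1%). The 3 effects against R1881 share the 2 R1881 libraries, so an error there moves all 3 the same way and the interaction the other way. Of the 6255 calls, 6248 (99.9%) kept their sign when additivity was taken on the CPM scale instead. Where both single effects lie opposite to the combination the sign is kept by construction, so this share is a weak check on the scale.

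**Figure D2:**
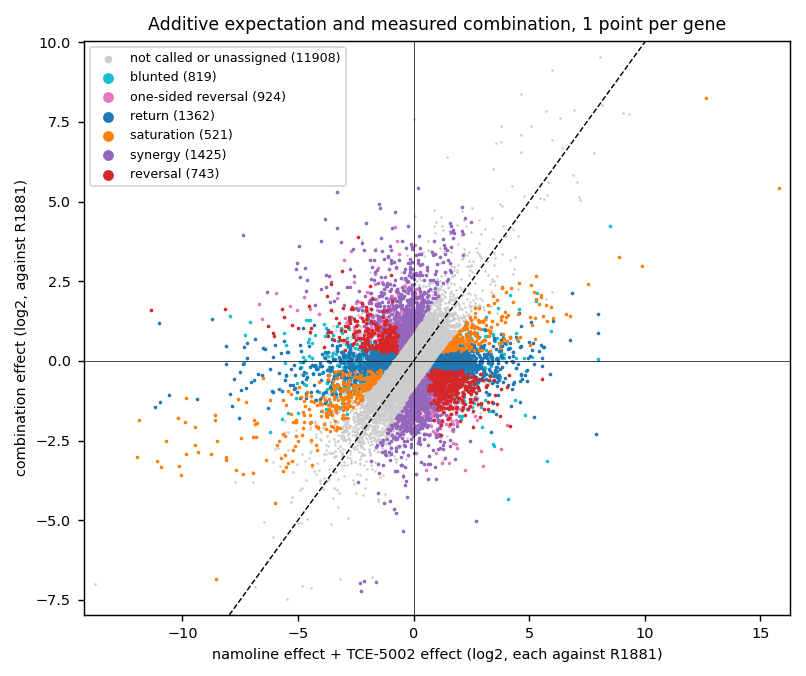
For each of 17702 genes, the sum of the namoline and TCE-5002 effects (x axis, log2) against the measured combination effect (y axis, log2), coloured by pattern, with the dashed line where the effects add. Reversal genes (743) fill the 2 quadrants where the sum and the combination have opposite signs, synergy genes (1425) stand near 0 on the x axis and away from 0 on the y axis, and saturation genes (521) lie between the dashed line and the x axis.

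Genes with a called interaction were sorted by which effects passed an adjusted p under 0.05, a sort that is a description and carries no test. Reversal, with both single effects in one direction and the combination in the other, held 743 genes (4.2% of those tested), of which 278 were up in the combination (1.57%) and 465 down (2.63%). Synergy had a combination effect in the direction of the interaction and no single effect that passed against it. It held 1425 genes (8.05%), 770 up (4.35%) and 655 down (3.7%), and in 1318 of them neither inhibitor alone passed. Their median single effects lay slightly against the combination, at -0.21 with namoline and -0.15 with TCE-5002 in those up. In those down they were 0.12 and 0.14. By the signs of the effects alone, 190 synergy genes were left. Saturation, with all 3 effects in one direction and the combination short of the sum, held 521 (2.94%), 220 up (1.24%) and 301 down (1.7%). The largest group outside these was the return to the R1881 level, with 1362 genes (7.69%) that both inhibitors moved the same way and the combination did not move detectably, 546 with an interaction above additivity (3.08%) and 816 below (4.61%). One-sided reversal, where only 1 inhibitor moved the gene against the combination, held 924 (5.22%), 421 up (2.38%) and 503 down (2.84%). A further 819 (4.63%) were blunted, where the combination lacked a change that at least 1 inhibitor gave, 384 of them above additivity (2.17%) and 435 below (2.46%), and 461 (2.6%) stayed unassigned, 266 above (1.5%) and 195 below (1.1%).

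The typical single effects behind a reversal were below 2-fold. The median reversal gene that rose in the combination stood at -0.77 with namoline, -0.67 with TCE-5002 and 0.70 with the pair on the log2 scale, and the median one that fell stood at 0.66, 0.74 and -0.71. With 2-fold changes asked of all 3 effects, 46 reversal genes were left, 27 up and 19 down. The reversal count also moved with each library left out. It was 244 and 294 without R1881 replicate 1 and 2, 491 and 408 without those of namoline, 472 and 385 without those of the combination, and 1277 and 1117 without those of TCE-5002. It came to 1153 with counts corrected for GC content, where 717 of the 743 kept the pattern. In 374 of 521 saturation genes (71.8%) the combination lay nearer to R1881 than either inhibitor alone, in 119 between them and in 28 beyond both. The saturation count was 296 without R1881 replicate 1, 335 and 341 without either combination library, and 226 with 2-fold effects. With library totals alone in place of TMM scaling it was 135 up and 413 down, and the synergy count turned to 645 up and 738 down. Without R1881 replicate 1 the return and one-sided reversal counts were 904 and 489, and without R1881 replicate 2 the latter was 515, as more genes stayed unassigned (1142 and 1018).

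**Figure D3:**
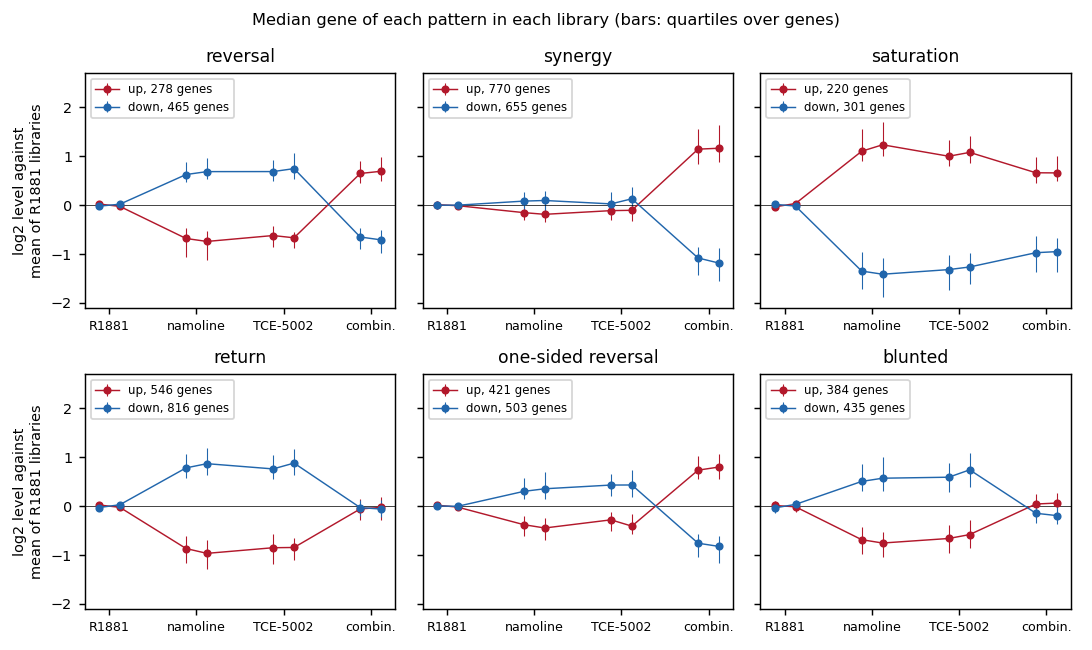
Median log2 level of the genes of each pattern in each of the 8 libraries, against the mean of the R1881 libraries (y axis), with the 2 libraries of a group side by side and bars for the quartiles over genes, red for genes up and blue for genes down. Lines cross 0 between the single inhibitors and the combination in reversal and one-sided reversal, stay near 0 until the combination in synergy, and turn back towards 0 in saturation and return.

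The transcripts of the 2 drug targets themselves departed from additivity in opposite directions. KDM7A (chromosome 7, 140084746 to 140177035, minus strand, GRCh38) stood at 99.9 and 95.0 CPM with R1881, 62.2 and 54.5 with namoline, 69.4 and 59.5 with TCE-5002, and 235 and 271 with both. The combination was above every other library and both single-inhibitor groups were below R1881, which made KDM7A a reversal gene in each of 16 alternative fits, with an interaction of 2.71 ± 0.18 (log2 ± SE, edgeR adjusted p = 7.57e-09). Those fits left the pattern thresholds unchanged, and the single effects on KDM7A were below 2-fold (-0.74 with namoline and -0.60 with TCE-5002). KDM1A (chromosome 1, 23019448 to 23083689, plus strand) was 74.1 and 72.4 CPM with R1881, 113 and 124 with namoline, 106 and 88.6 with TCE-5002, and 70.2 and 71.0 with both. It rose with each inhibitor, by 0.69 ± 0.12 and 0.41 ± 0.12, and was back at the R1881 level with both (-0.05 ± 0.12, adjusted p = 0.732), for an interaction of -1.15 ± 0.17 (adjusted p = 2.65e-05). The relatives of KDM7A had no interaction call. KDM2A rose with namoline (0.45 ± 0.11) and with the combination (0.40 ± 0.11), and PHF8 was lower with the combination than with TCE-5002 alone (-0.39 ± 0.11). PHF8 had an interaction of -0.36 ± 0.15 (adjusted p = 0.0601) and KDM2A one of 0.01 ± 0.15 (adjusted p = 0.975). Inhibition of an enzyme need not change its transcript, so these levels do not check the treatments.

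Of 18 histone lysine demethylases tested, 5 were called (27.8%), a share below the 35.3% of all genes. Besides the drug targets these were KDM3A, the H3 lysine 9 demethylase induced by low oxygen (1.81 ± 0.16), its relative JMJD1C (1.80 ± 0.19), and KDM4B, which demethylates trimethylated lysine 9 (-1.38 ± 0.20). Methyltransferase and Polycomb genes were called in 7 of 24 (29.2%), also below that share, 3 above and 4 below additivity. The mixed lineage methyltransferase KMT2A reversed upwards, at -0.35 and -0.51 with the single inhibitors and 0.95 with both, and EZH1 rose by 1.26 ± 0.12 with the combination, while CBX2 and SUV39H2 each had an interaction of -1.75. KMT2A kept the reversal pattern in only 9 of 16 alternative fits.

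Of the 5 upward reversal genes named for their size, 3 belonged to the stress response. The integrated stress response is the programme by which eIF2alpha phosphorylation raises the transcription factor ATF4, which then induces genes for amino acid supply and, when stress persists, DDIT3. All 28 genes of this list were tested, and 21 were called above additivity and 0 below, where 16.8% of all genes were above. Namoline lowered all 28 at an adjusted p under 0.05 (16.3% of all genes fell with namoline by that rule) and TCE-5002 lowered 27 (16.8%). The list's median was -1.79 with namoline, -1.21 with TCE-5002, -1.04 with both and 2.30 for the interaction, against -0.01 for the interaction over all genes. Of the 21 called genes, 4 rose above R1881 with the combination, 8 did not differ from it detectably and 9 stayed below it but fell by less than the sum of the single effects. Over the whole list 16 of 28 fell with the combination by adjusted p alone, where 25.6% of all genes did. The list was written with earlier results of these data known, and its count is a description.

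DDIT3, the transcription factor CHOP (chromosome 12, 57516588 to 57520517, minus strand), had the largest interaction of the reversal genes that the naming rule covered. It stood at 381 and 355 CPM with R1881, 19.97 and 16.7 with namoline, 92.4 and 95.3 with TCE-5002, and 777 and 793 with both. No library of one group overlapped another group. Namoline lowered DDIT3 by -4.33 ± 0.13 and TCE-5002 by -1.97 ± 0.12, the combination raised it by 1.09 ± 0.11, and the interaction was 7.39 ± 0.18 (adjusted p = 3.73e-13). DDIT3 overlaps MARS1, and reads were not assigned by strand, so part of these counts may belong to MARS1, whose interaction of 1.54 was smaller.

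ATF3 (chromosome 1, 212565334 to 212620777, plus strand), a repressor of the same pathway, was 121 CPM in both R1881 libraries, 36.0 and 39.3 with namoline, 77.9 and 69.7 with TCE-5002, and 1738 and 1856 with both. The combination libraries stood far above R1881 (3.90 ± 0.12) while both libraries of each inhibitor alone stood below it, and the interaction was 6.29 ± 0.17 (adjusted p = 1.39e-12). PPP1R15A, the phosphatase subunit that ends eIF2alpha phosphorylation, went from 19.0 and 20.1 CPM to 3.58 and 4.52, 6.80 and 9.06, and 98.9 and 109.9 in the same order (interaction 5.99 ± 0.24). NUPR1, a stress-induced chromatin protein, completed the 4 reversals at 461 ± 27.7 CPM with R1881, 103 ± 12.5 with namoline, 224 ± 39.1 with TCE-5002 and 730 ± 15.3 with the pair (mean ± SD, n = 2). All 3 of DDIT3, ATF3 and PPP1R15A kept the reversal pattern in 16 of 16 alternative fits, which left the pattern thresholds unchanged. The TCE-5002 effect on ATF3 was below 2-fold (-0.71), so ATF3 is not among the reversals with 2-fold effects.

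No other member of the list passed the test for a rise over R1881. ATF4 itself was 724 ± 16.3 CPM with R1881, 308 ± 24.5 with namoline, 429 ± 28.9 with TCE-5002 and 497 ± 34.5 with the pair, so its transcript stayed below R1881 (combination -0.54 ± 0.11, interaction 1.44 ± 0.16). ASNS, asparagine synthetase, fell to 268 ± 34.6 and 389 ± 47.3 CPM from 1010.1 ± 36.3 and came back to 594 ± 40.1. CHAC1, which degrades glutathione, fell from 49.3 ± 4.89 CPM to 1.82 ± 0.362 with namoline and stood at 11.6 ± 0.933 with TCE-5002 and 12.5 ± 0.695 with the pair. FGF21, a secreted stress hormone, was at 4.80 and 5.71 CPM with R1881, 0.231 and 0.174 with namoline, 1.37 and 2.53 with TCE-5002, and 5.61 and 5.70 with both, a full return with an interaction of 6.18 ± 0.51. The serine synthesis genes gave no interaction call. PSAT1 fell by 1.46, 1.11 and 2.34 on the log2 scale with namoline, TCE-5002 and both, and PHGDH by 0.65, 0.78 and 1.35, sums that their combinations matched to within 0.23.

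Several motifs were searched in promoters on both strands, in RefSeq sequences of GRCh38.p14 from 250 bases before to 50 after the start. For this list the ATF4 and C/EBP element TGATGNAA is given. Of 24 listed genes with a promoter sequence 6 held a match in any of their promoters, and 5 of these 6 were called. Of the whole list 75% were called. The shares that follow are per promoter and are not comparable with these counts of genes. Over all protein-coding genes tested, 2.04% of 15703 promoters held the letters, against 4.61% of 304 promoters of reversal genes that rose and 7.0% of 257 promoters of saturation genes that fell. For return genes with an interaction above additivity the share was 2.66% of 488 promoters. The stretches around the element in one gene of each behaviour are shown because they let a reader compare a reversal gene with genes that stayed low or returned, the element being in capitals and letters on the minus strand of the gene appearing as its reverse complement.
ATF3 (reversal, chr1:212565191-212565248, plus strand): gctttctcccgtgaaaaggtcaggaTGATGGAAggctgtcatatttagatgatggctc
ASNS (saturation, chr7:97872444-97872501, minus strand): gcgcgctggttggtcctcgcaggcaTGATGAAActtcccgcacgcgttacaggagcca
CHAC1 (saturation, chr15:40953237-40953294, plus strand): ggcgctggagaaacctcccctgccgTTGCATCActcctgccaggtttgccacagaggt
FGF21 (return, chr19:48755445-48755502, plus strand): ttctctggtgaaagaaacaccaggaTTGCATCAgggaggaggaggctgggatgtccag
CEBPG (return, chr19:33374046-33374103, plus strand): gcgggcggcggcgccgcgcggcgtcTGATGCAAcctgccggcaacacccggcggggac
The same letters stood before genes of 3 different patterns, and the uncalled gene JDP2 held them too.

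Genes that charge and import amino acids split by member. Of 20 cytosolic aminoacyl-tRNA synthetases, 9 were above additivity and 3 below, where 16.8% of all genes were above and 18.6% below. SARS1 and AARS1 reversed, SARS1 at 546 and 555 CPM with R1881, 257 and 221 with namoline, 307 and 276 with TCE-5002, and 734 and 775 with both (interaction 2.58 ± 0.17), while WARS1 stayed low (interaction 2.64 ± 0.15) and VARS1, FARSA and QARS1 went the other way with interactions of -1.38, -1.34 and -1.67. Of 15 amino acid transporters 6 were above and 4 below. SLC3A2, the heavy chain shared by several exchangers, stood at 476 and 495 CPM with R1881, 214 and 203 with namoline, 275 and 329.7 with TCE-5002, and 1312 and 1382 with both, so that the combination libraries were above all others and the single-inhibitor libraries below. Its partner for cystine, SLC7A11, stayed below R1881 with both, with effects of -2.05, -1.60 and -0.43, and its partner for leucine, SLC7A5, was not called, with effects of -1.0, -1.05 and -2.15.

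Chaperones of the endoplasmic reticulum, induced when unfolded proteins accumulate there, gave 13 of 20 genes above additivity and 0 below (16.8% and 18.6% of all genes). HSPA5, the master chaperone BiP, was 2273 and 2269 CPM with R1881, 807 and 790.0 with namoline, 1040.2 and 961 with TCE-5002, and 6708 and 7217 with both. Each inhibitor alone took it to less than R1881 in both libraries and the combination took it above, with an interaction of 4.31 ± 0.17 (adjusted p = 1.57e-10). DNAJB9, a cochaperone, reversed likewise (-1.02, -0.82 and 1.62), HERPUD1 and ATF6 returned, and HYOU1 stayed below R1881 (-1.34, -1.43 and -0.38). The protein disulphide isomerases PDIA3, PDIA4 and PDIA6 had interactions between -0.03 and 0.05 and no call.

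The ER stress element, which is CCAAT and CCACG set 9 bases apart, was searched on both strands. It was found in 18 of 15703 promoters (0.115%). By gene, which is another unit, it was found in 7 of 19 chaperone genes with a promoter sequence. Of these 7, 4 were called, where 65% of the whole list was called. The stretches from 3 such genes with unlike responses follow, with the element in capitals.
HSPA5 (reversal, chr9:125241366-125241434, minus strand): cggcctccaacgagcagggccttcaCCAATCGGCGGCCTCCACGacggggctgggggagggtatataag
HSP90B1 (return, chr12:103930191-103930259, plus strand): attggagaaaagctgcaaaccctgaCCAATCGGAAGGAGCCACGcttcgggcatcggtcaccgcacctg
PDIA6 (not called, chr2:10812828-10812896, minus strand): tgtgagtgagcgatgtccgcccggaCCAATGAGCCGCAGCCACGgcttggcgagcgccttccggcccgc
HSP90B1, the chaperone GRP94, stood at 1409 ± 67.6 CPM with R1881, 954 ± 37.4 with namoline, 927 ± 126 with TCE-5002 and 1681 ± 41.3 with the pair, while PDIA6 had means between 191 and 214 CPM in the 4 groups, so these letters stood before genes with unlike responses.

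Among 22 lysosome and autophagy genes 5 were above additivity and 2 below, near or under the shares of all genes (16.8% and 18.6%). MAP1LC3B, the autophagosome protein LC3B, was 271 and 268 CPM with R1881, 79.0 and 70.7 with namoline, 114 and 95.2 with TCE-5002, and 292 and 300.5 with both, a return with an interaction of 3.35 ± 0.17. The cargo receptor SQSTM1 rose to 1304 and 1399 CPM with the combination from 429 and 482 (1.57 ± 0.13) and GABARAPL1 rose by 1.26 ± 0.11. Outside the lists the naming rule brought up MOV10L1, a germ-line RNA helicase, at 16.1 and 14.8 CPM with R1881, 2.31 and 0.637 with namoline, 1.88 and 2.90 with TCE-5002, and 29.1 and 27.4 with both (interaction 6.95 ± 0.43), and ID4, an inhibitor of basic helix-loop-helix factors, which went from 2.08 and 1.90 CPM to 14.9 and 13.2 with the combination (interaction 5.92 ± 0.41). ID4 kept the reversal pattern in 9 of 16 alternative fits and MOV10L1 in 14.

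**Figure D4:**
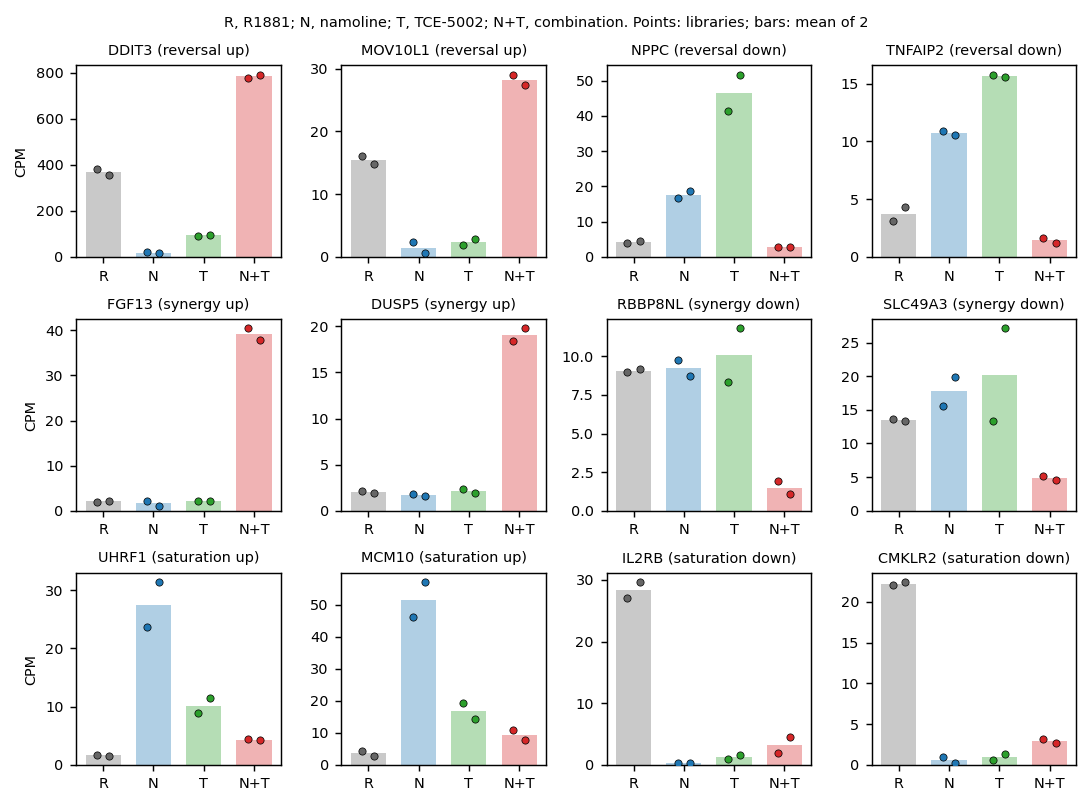
CPM (y axis, linear, from 0) of 12 genes in R1881 (R), namoline (N), TCE-5002 (T) and the combination (N+T), with 1 point per library and bars at the mean of 2. The top row holds reversals such as DDIT3 (381 and 355 CPM with R1881, 777 and 793 with both, under 100 with either), the middle row synergy genes, which stand apart in the combination, and the bottom row saturation genes, where UHRF1 and MCM10 are highest with namoline alone.

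Androgen-induced genes were almost all below additivity. These are the genes that the activated receptor switches on in luminal prostate cells, among them the secreted kallikreins. Of 24 tested, 23 were called below additivity and 0 above, where 18.6% of all genes were below. The list's medians were 0.43 with namoline, 0.60 with TCE-5002, -1.21 with both and -2.34 for the interaction. By an adjusted p under 0.05, 15 rose with namoline (18.8% of all genes did) and 13 with TCE-5002 (20%), and 20 fell with the combination (25.6%). By pattern 7 were reversals, 8 one-sided reversals, 4 synergy, 2 return and 2 blunted. The call counts stayed at 22 or 23 in every alternative fit.

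TMPRSS2, an androgen-regulated serine protease of the cell surface, was 371 and 391 CPM with R1881, 727 and 825 with namoline, 1263 and 1321 with TCE-5002, and 228 and 192 with both. It was raised by either inhibitor and lowered by the pair, with no overlap between groups and an interaction of -3.65 ± 0.18 (adjusted p = 6.65e-10). KLK3, the gene of prostate-specific antigen, was 203 and 222 CPM with R1881, 163 and 209.7 with namoline, 396 and 477 with TCE-5002, and 52.4 and 40.9 with both. Only TCE-5002 raised KLK3 (1.04 ± 0.15), namoline and R1881 overlapped, and the combination lay below all other libraries (-2.19 ± 0.15). KLK2, ABCC4, SORD and PMEPA1 reversed, with interactions of -2.96, -2.35, -2.40 and -2.75, and FKBP5, a cochaperone of steroid receptors, was raised by namoline and lowered by the combination (0.58 and -0.89). The remaining member, with an interaction under 2-fold, was not called.

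The transcription factors of the luminal lineage went the same way, with 8 of 9 below additivity and 1 above (18.6% and 16.8% of all genes). SPDEF, an ETS factor of luminal cells, was 81.3 and 99.7 CPM with R1881, 172 and 216 with namoline, 197 and 295 with TCE-5002, and 37.9 and 35.2 with both (interaction -3.85 ± 0.25). HOXB13, the prostate homeobox factor, was 134 and 143 CPM, 184 and 213, 249.8 and 294, and 39.6 and 38.5 in the same order (interaction -3.32 ± 0.17). FOXA1, the pioneer factor that opens chromatin for the receptor, was at 369.6 and 392 CPM with R1881 and 369 and 391 with namoline, stood at 457 and 479 with TCE-5002 and fell to 94.8 and 81.7 with both. The member above additivity was ELF3, an epithelial ETS factor (2.20). Of structural epithelial markers, EPCAM, KRT8, KRT18 and CDH1 had interactions of -0.71, 0.68, 0.40 and 0.72 and none was called. Reads of FOXA1 share positions with TTC6, as those of many genes here do with a neighbour on the other strand.

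The reversal genes with the deepest negative interactions were a mixed set. NPPC, C-type natriuretic peptide, stood at 3.83 and 4.56 CPM with R1881, 16.7 and 18.6 with namoline, 41.5 and 51.7 with TCE-5002, and 2.75 and 2.88 with both, and its interaction was -6.13 ± 0.26 (adjusted p = 2.30e-10). TNFAIP2, a target of NF-kappaB, was 3.14 and 4.31 CPM, 10.8 and 10.5, 15.8 and 15.6, and 1.65 and 1.20 in the same order (-4.98 ± 0.31). For both genes every single-inhibitor library was above every R1881 library and every combination library was below. CKB, the brain-type creatine kinase, reached 1859 and 2807 CPM with TCE-5002 from 433 and 449 and stood at 244 and 235 with both, and the ligand WNT10B gave -4.56 ± 0.28. SFTPA2 (-4.59 ± 0.32) has a near-identical copy, SFTPA1, and its value is uncertain. NPPC was a reversal gene in 10 of 16 alternative fits, since its fall with the combination was small (-0.57 ± 0.22, adjusted p = 0.0387).

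Energy metabolism was below additivity as well. Of 39 nuclear-encoded respiratory chain genes 22 were called below and 1 above, against 18.6% and 16.8% of all genes. Their medians were 0.31, 0.72, 0.02 and -1.13 for namoline, TCE-5002, the combination and the interaction. By adjusted p alone 17 rose with namoline (18.8% of all genes), 35 rose with TCE-5002 (20%), and with the combination 5 rose and 14 fell (24.9% and 25.6%). NDUFB3 and NDUFA2, accessory subunits of complex I, reversed (interactions -2.0 ± 0.21 and -1.85 ± 0.17), and COX7B of complex IV fell by 0.61 with the combination. NDUFB3 and NDUFA2 kept the reversal pattern in 12 and 10 of 16 alternative fits. In the glycolysis and hypoxia list 11 of 19 were below and 2 above. LDHA, lactate dehydrogenase A, was 412 and 353 CPM with R1881, 511 and 594 with namoline, 821 and 813 with TCE-5002, and 187 and 204 with both (interaction -2.59 ± 0.17), and the aldolase ALDOC, raised by each inhibitor, was back at the R1881 level with both. The angiogenic factor VEGFA did the reverse, at 437 and 462 CPM with R1881, 140.3 and 168 with namoline, 319 and 411 with TCE-5002, and 882 and 1053 with both. CA9, the hypoxia-induced carbonic anhydrase, was under 3 CPM throughout, and its call was lost without namoline replicate 2 (-3.02 against -4.33).

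Targets of p53, the tumour suppressor that arrests or kills damaged cells, were mostly synergy genes. Of 27 tested, 19 were above additivity and 0 below (16.8% and 18.6% of all genes), and 17 of these 19 were synergy genes. The list's medians were 0.46 with namoline, 0.15 with TCE-5002, 1.88 with both and 1.55 for the interaction. By adjusted p alone 26 rose with the combination (24.9% of all genes did), against 15 with namoline (18.8%) and 8 with TCE-5002 (20%). CDKN1A, the cell cycle inhibitor p21, named after its values were seen, stood at 64.9 ± 10.8 CPM with R1881, 205 ± 41.0 with namoline, 95.1 ± 6.84 with TCE-5002 and 1446 ± 50.9 with the pair (mean ± SD, n = 2), an interaction of 2.26 ± 0.21. It rose with namoline and with TCE-5002 (1.66 ± 0.15 and 0.55 ± 0.15) and by 4.48 ± 0.16 with both.

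The p53 list also holds genes of cell death. BBC3, the pro-apoptotic PUMA, was 6.0 and 5.39 CPM with R1881, 6.92 and 4.87 with namoline, 4.21 and 7.80 with TCE-5002, and 32.8 and 41.1 with both. The first 3 groups overlapped and the combination stood clear of them (interaction 2.58 ± 0.35, adjusted p = 1.61e-05). The death receptor FAS was 2.08 and 2.03 CPM with R1881, 6.41 and 4.23 with namoline, 3.20 and 1.74 with TCE-5002, and 39.0 and 38.2 with both. It rose with namoline alone (1.37 ± 0.27) and further with the combination (4.23 ± 0.25), but FAS overlaps ACTA2 and reads of the 2 genes cannot be told apart by strand. PLK3, a stress kinase, rose from 7.53 and 9.0 CPM to 57.8 and 56.8. MDM2, the ligase that degrades p53, was 142 ± 6.47, 174 ± 11.4, 123 ± 9.44 and 551 ± 4.01 CPM in the 4 groups. XPC, a DNA damage sensor, reversed instead, at 62.1 and 59.6 CPM with R1881, under 50 with either inhibitor and 223 and 226 with both. XPC kept the reversal pattern in 11 of 16 alternative fits. The secreted factor GDF15 was not called, and rose with TCE-5002 alone by 1.70 ± 0.20 and with the combination by 1.81 ± 0.20. In the BCL2 family 4 of 15 were above and 3 below additivity, against 16.8% and 18.6% of all genes. PMAIP1, the pro-apoptotic NOXA, rose by 0.93 ± 0.18 with the combination, BCL2L1 and MCL1 had interactions of -0.09 and -0.02, and the fitted value of HRK rests on a namoline group listed at 0 and is not read as a size.

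Genes of the actin cytoskeleton that the factors SRF and YAP control gave 8 of 13 above additivity and 0 below (16.8% and 18.6% of all genes), 5 by synergy. FLNA, the actin crosslinker filamin A, was 116 and 132 CPM with R1881, 244 and 262 with namoline, 119 and 173 with TCE-5002, and 1643 and 1853 with both, an interaction of 2.55 ± 0.22 (adjusted p = 1.25e-07). MYL9, a myosin light chain, was below 0.6 CPM in all 6 libraries without both inhibitors and at 8.80 and 8.04 with both. CCN1, a matrix-associated protein, rose from 2.91 and 2.60 CPM to 34.3 and 40.5. The call for ACTA2 was lost without R1881 replicate 2 (2.18, adjusted p = 0.0984), and TPM1, TAGLN and VCL were not called. Of the 4 mesenchymal markers tested, VIM, PDGFRB and FN1 were below additivity, with interactions of -2.24, -2.31 and -1.75. COL1A1 was not called (0.92 ± 0.29), at a mean of 49.1 CPM with R1881 and 75.2 with both. Group means were only 1.20 to 3.84 CPM for VIM and 0.477 to 1.91 for PDGFRB. VIM kept its pattern in 7 of 16 alternative fits.

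Of the synergy genes that rose, the 5 named by size were FGF13, DUSP5, PXDC1, MAFF and CCN1. FGF13 (chromosome X, 138614731 to 139222777, minus strand), a fibroblast growth factor homologue that stays inside the cell, was 1.99 and 2.22 CPM with R1881, 2.19 and 1.16 with namoline, 2.18 and 2.21 with TCE-5002, and 40.4 and 37.9 with both. DUSP5, a nuclear ERK phosphatase, was 2.12 and 1.97, 1.85 and 1.62, 2.38 and 1.95, and 18.4 and 19.8 CPM. In each gene the first 3 groups overlapped or lay within a fraction of a CPM, neither inhibitor alone passed the test, and the interactions were 4.47 ± 0.36 and 3.37 ± 0.33. MAFF, a small Maf factor, rose to 32.5 and 37.3 CPM with both from 3.88 and 3.80 but kept the synergy pattern in only 7 of 16 alternative fits, and PXDC1 to 18.7 and 16.2 from 2.82 and 2.92. Immediate-early and MAPK feedback genes as a list were split, with 3 of 19 above additivity (DUSP5, MAFF and the ETS factor ETV5) and 6 below, among them EGR1 and FOS at levels under 10 CPM. Over all genes 16.8% were above and 18.6% below. The call for FOS was marginal (-3.69, adjusted p = 0.0483) and was lost in most alternative fits. Its TCE-5002 libraries stood at 9.69 and 1.11 CPM, and without the first the interaction was -1.38.

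Synergy genes that fell were of low to moderate level. RBBP8NL was 8.96 and 9.19 CPM with R1881, 9.75 and 8.75 with namoline, 8.37 and 11.8 with TCE-5002, and 1.92 and 1.08 with both, an interaction of -2.76 ± 0.34 (adjusted p = 6.57e-06). ELF5, an epithelial ETS factor, was 25.1 and 22.4, 28.9 and 25.9, 23.9 and 22.3, and 5.50 and 4.50 CPM. Neither inhibitor alone moved either gene past the threshold, and the combination lay below every other library. The netrin receptor UNC5A fell to 0.990 and 1.26 CPM from 8.4 and 8.05, SCAMP5, a secretory vesicle membrane protein, to 2.09 and 1.62 from 8.08 and 8.49, and SLC49A3 to 5.11 and 4.56 from 13.7 and 13.3. SCAMP5 overlaps RPP25 and SLC49A3 overlaps MYL5, and the TCE-5002 replicates of SLC49A3 differed by about 2-fold (13.3 and 27.1).

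Replication genes mostly rose with each inhibitor and ended below additivity. Of 37 genes for origin licensing, helicase loading and the replicative polymerases, 26 were below additivity and 1, POLE, above, with 9 by saturation and 11 by return. Over all genes 18.6% were below and 16.8% above. Medians were 1.51 with namoline, 0.78 with TCE-5002, 0.18 with both and -2.02 for the interaction, and by adjusted p alone 35 rose with namoline (18.8% of all genes), 26 with TCE-5002 (20%) and 15 with the combination (24.9%). UHRF1 (chromosome 19, 4903080 to 4962154, plus strand), which brings DNA methyltransferase 1 to newly copied DNA, was 1.62 and 1.58 CPM with R1881, 23.6 and 31.4 with namoline, 8.93 and 11.4 with TCE-5002, and 4.40 and 4.2 with both. The 4 groups did not overlap, and the combination was the lowest of the 3 treated groups. UHRF1 had an interaction of -5.33 ± 0.31 (adjusted p = 2.67e-09), the largest in size among the saturation genes that rose and were named by rule.

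MCM10, an initiation factor, was 4.34 and 2.79 CPM with R1881, 46.0 and 57.0 with namoline, 19.3 and 14.3 with TCE-5002, and 11 and 7.62 with both, and CDC45, a part of the replicative helicase, returned fully (interaction -4.89 ± 0.37). The sliding clamp PCNA stood at 39.6 ± 0.832, 157 ± 13.0, 94.6 ± 17.5 and 68.3 ± 3.62 CPM in the 4 groups. The transcription factors E2F2 and ZNF367 and the cycle gene CDCA7 had interactions of -4.56, -4.25 and -4.55. E2F2 and CDCA7 ended close to R1881 and kept the saturation pattern in 9 and 7 of 16 alternative fits.

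Searched for the E2F site TTTNGCGC on both strands, 13 of 32 replication genes with a promoter sequence held a match in any promoter, 12 of them called. Of the whole list 73.0% were called. The shares that follow are per promoter, not per gene. All promoters held it at 2.62% and those of saturation genes that rose at 6.0% (15 of 250). Return genes with an interaction above additivity, which both inhibitors lowered, held it at 5.12%. Return genes with an interaction below additivity, the pattern of 11 replication genes, held it at 2.92%. Other motifs also differed from all promoters, and no share was tested. In saturation genes that rose the cyclic AMP element TGACGTCA stood at 5.6%, against 2.69% of all promoters. In saturation genes that fell the letters TTTGAA stood at 14.8%, against 10.4%. Of the replication genes, the stretches of 4 are shown with the site in capitals (overlapping sites on both strands run together) because they stand before genes that kept part of the rise and genes that lost all of it.
MCM7 (saturation, chr7:100101398-100101431, minus strand): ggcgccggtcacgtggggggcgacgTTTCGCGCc
POLA2 (saturation, chr11:65261884-65261941, plus strand): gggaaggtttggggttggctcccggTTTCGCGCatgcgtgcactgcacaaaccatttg
CDT1 (return, chr16:88803551-88803608, plus strand): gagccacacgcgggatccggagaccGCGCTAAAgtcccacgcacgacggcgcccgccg
MCM6 (return, chr2:135876497-135876620, minus strand): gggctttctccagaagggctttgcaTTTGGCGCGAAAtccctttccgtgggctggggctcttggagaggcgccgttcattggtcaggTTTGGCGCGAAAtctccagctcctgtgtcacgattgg
MCM7, a helicase subunit, was 88.1 ± 3.72 CPM with R1881, 309 ± 55.4 with namoline, 157 ± 4.13 with TCE-5002 and 166 ± 0.0346 with the pair, while MCM6, its partner in the same ring, was 33.6 ± 1.80, 93.5 ± 6.25, 52.5 ± 8.09 and 36.3 ± 5.74.

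Lists that serve replication were also mostly below additivity, where 18.6% of all genes were below and 16.8% above. Homologous recombination and Fanconi genes were below additivity in 16 of 23 and above in 2, with RAD54L at 2.95 and 3.36 CPM with R1881, 21.6 and 29.8 with namoline, 14.3 and 15.3 with TCE-5002, and 7.48 and 8.4 with both. The kinase ATM was above additivity (1.29). Nucleotide synthesis genes were below in 16 of 20 and above in 0. RRM2, the small subunit of ribonucleotide reductase, was 17.5 and 10.5 CPM, 87.0 and 119, 28.0 and 26.8, and 18 and 12.7 in the 4 groups, TK1, thymidine kinase, fell below R1881 with both (-1.46 ± 0.20), and the nucleoside transporter SLC29A1 kept most of its rise (2.71, 2.48 and 2.16). In the DNA methylation list 3 of 10 were below, UHRF1, HELLS and DNMT1, and UHRF2 was above (1.30 ± 0.16).

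Fatty acid synthesis genes were below additivity in 9 of 12 and above in 0 (18.6% and 16.8% of all genes), with medians of 1.37, 0.65, 0.41 and -1.81. FASN, fatty acid synthase, was 1123 and 1437 CPM with R1881, 5303 and 7602 with namoline, 3393 and 4869 with TCE-5002, and 2088 and 1816 with both, and the elongase ELOVL6 was 5.49 and 5.07, 60.8 and 71.9, 25.1 and 16.1, and 16.5 and 11.5. Both were above R1881 in every treated library, and of the treated groups the combination had the lowest mean. Heat shock chaperones were below in 6 of 14 and above in 0, and HSPB1, the small chaperone HSP27, rose by 2.22, 1.79 and 1.36. Cholesterol genes were a contrast, with 6 of 25 below and 1 above. HMGCS1, an early enzyme of the pathway, was 96.3 ± 1.09, 206 ± 2.75, 84.5 ± 13.3 and 198 ± 3.89 CPM in the 4 groups. The combination stood near namoline alone, and the interaction was 0.13 ± 0.17.

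Saturation downwards was led by genes that either inhibitor almost silenced. IL2RB, a chain of the interleukin-2 receptor, was 27.1 and 29.6 CPM with R1881, 0.289 and 0.290 with namoline, 0.913 and 1.58 with TCE-5002, and 1.87 and 4.56 with both, and its interaction was 7.93 ± 0.57 (adjusted p = 2.01e-08). CMKLR2, a chemerin receptor, was 22.0 and 22.4, 0.923 and 0.232, 0.558 and 1.26, and 3.13 and 2.7 CPM (6.93 ± 0.52). In both genes the combination lay above the single inhibitors and far below R1881. Lymphoid markers were at or near 0 in all libraries, as given above. FIBIN, KLHDC7B and TGM1, an epidermal transglutaminase, were the others of the rule (6.39, 5.99 and 5.97). For FIBIN and KLHDC7B a namoline library was at 0.116 and 0.0580 CPM, a few reads, so the fitted sizes depend on the prior count. TGM1 came back to 12.6 and 14.1 CPM from under 3, against 18.3 and 20.7 with R1881.

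TXNIP, an arrestin that restrains glucose uptake and reports on the glucose-sensing factor MondoA, showed unequal single effects. It was 767 and 714 CPM with R1881, 319.9 and 278 with namoline, 4.26 and 4.27 with TCE-5002, and 99.0 and 94.7 with both. TCE-5002 lowered TXNIP by -7.44 ± 0.16, and adding namoline, which on its own lowered it by -1.31 ± 0.11, raised it above the TCE-5002 level, for an interaction of 5.81 ± 0.18. ARRDC4, its closest relative under MondoA, gave -0.65 with namoline, -2.78 with TCE-5002, -0.81 with both and an interaction of 2.62, and the MondoA gene itself, MLXIP, was not called (-0.60). In all 3 of 8 were above additivity and 1 below, against 16.8% and 18.6% of all genes.

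Some BMP targets also fell with TCE-5002 and not with both. ID1, an inhibitor of differentiation that BMP signals induce, was 8.22 and 9.51 CPM with R1881, 25 and 24.2 with namoline, 0.659 and 0.843 with TCE-5002, and 13.2 and 15.0 with both (interaction 2.75 ± 0.29). ID2 was 14.1 and 16.2, 11.3 and 11, 2.38 and 2.63, and 15.8 and 16.9 CPM, and ID3 followed (0.77, -2.0 and 0.98). The groups with TCE-5002 alone lay below all others in ID1 and ID2. TGF-beta and BMP targets as a list had 5 of 11 above and 4 below (16.8% and 18.6% of all genes), the latter with SMAD6 and PMEPA1.

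Mitotic genes mostly fell with TCE-5002 and with the combination. Of 35 G2/M genes 7 were below additivity and 0 above (18.6% and 16.8% of all genes), with medians of 0.08 with namoline, -1.32 with TCE-5002, -1.76 with both and -0.47 for the interaction. By adjusted p alone 32 fell with TCE-5002 (16.8% of all genes), 33 with the combination (25.6%) and 8 with namoline (16.3%). PLK1, a mitotic kinase, was 43.9 ± 2.78, 39.6 ± 12.6, 11.2 ± 3.74 and 9.41 ± 0.916 CPM in the 4 groups (interaction -0.10 ± 0.31). The called members were led by CDK1, raised by each inhibitor and back at R1881 with both (-2.99 ± 0.25), and AURKB (-2.41 ± 0.30). The count was unstable, at 16 without combination replicate 1, 13 without R1881 replicate 1 and 12 with the GC correction.

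The remaining lists were split or near the background, in which 16.8% of all genes were above additivity and 18.6% below. Ribosomal protein genes had 3 of 48 below and 0 above, with a median interaction of -0.47, and RPS15 was the farthest (-1.49 ± 0.18). Antioxidant genes driven by NRF2 had 4 of 17 above and 4 below: HMOX1, haem oxygenase, fell with namoline (-0.70 ± 0.21) and rose with both (1.33 ± 0.20), while NQO1 rose most with namoline (1.86 ± 0.15) and PRDX1 returned. Ferritin heavy chain, FTH1, rose by 1.33, 1.05 and 2.97 on the log2 scale and was not called. Interferon-stimulated and antigen presentation genes had 3 of 21 above and 5 below, with OAS1 and OAS3 raised by namoline (1.70 and 1.98) and not with both, and IRF1 raised with both (1.76 ± 0.16). NF-kappaB targets had 1 of 10 above and 3 below, and splicing factors 3 of 30 above and 6 below, with the kinase CLK1 reversing upwards (2.40 ± 0.20) and SRSF2 and SRSF7 returning. CLK1 kept the reversal pattern in only 9 of 16 alternative fits.

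**Figure D5:**
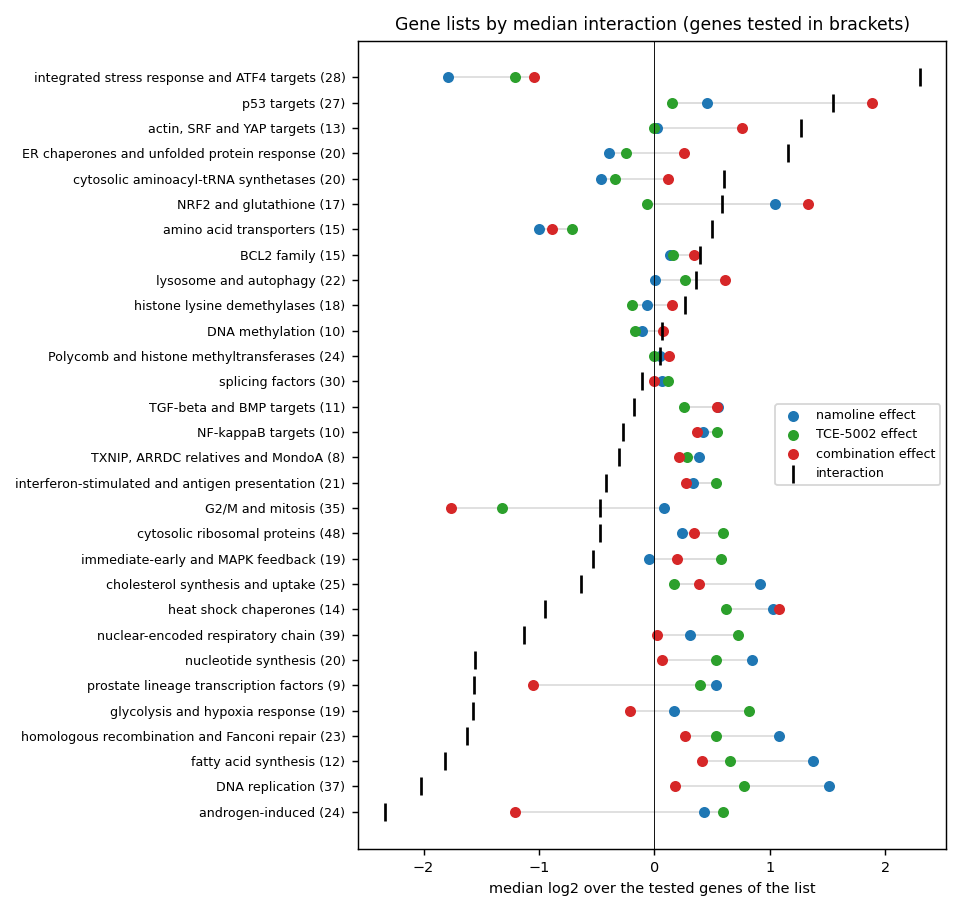
Median log2 effect of namoline, TCE-5002 and the combination against R1881 (dots) and median interaction (black tick) over the tested genes of 30 lists (number tested in brackets), sorted by interaction. The integrated stress response (2.30) and p53 targets (1.55) stand at the top, and DNA replication (-2.02) and androgen-induced genes (-2.34) at the bottom, where the combination dot of the androgen list lies on the other side of 0 from both single inhibitors.

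Patterns differed in gene properties that were not stated criteria of the sort, although not all of them are independent of it. Median transcript GC content was 48.6% over all genes tested, 43.8% in reversal genes that rose, 52.6% in those that fell, 55.1% in saturation genes that rose and 47.4% in those that fell. Differences between replicates also followed GC content, with Spearman rho across genes up to 0.80 in the TCE-5002 group, and the part of GC content in the sort was tested only by the correction above, under which 5578 of the 6255 interaction calls were kept. Protein-coding genes were 75% of those tested, 96.8% of reversal genes that fell and 61.9% of synergy genes that rose. Reversal genes had a median level of 50.5 CPM and synergy genes one of 6.29, against 15.7 for all genes tested. Reversal asks every effect to pass the adjusted p, while in most synergy genes neither inhibitor alone passed. An effect passes less easily at a low level, so this difference in level can arise from the sort itself. The protein-coding shares may follow level in the same way, which was not tested. A promoter sequence was found for 80.8% of 13269 protein-coding genes, 79.1% of those in reversal down and 76.4% of those in synergy down. In promoters of these 2 groups the ATF4 and C/EBP element stood at 1.08% and 2.78%. The E2F site stood at 1.79% and 2.16%.

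The 4 libraries labelled LNCaP, 2 with R1881 and 2 with the combination as well, took no part in the sort. There the combination was called for 3283 of 17565 genes (18.7%), 7.4% up and 11.3% down. Of the 15283 genes tested in both fits, 6.96% rose and 9.64% fell in these libraries. Among these, reversal genes that fell in C4-2 rose in 3.37% and fell in 10.1%. For reversal genes that rose in C4-2 the shares were 4.12% and 1.5%. Synergy genes that fell in C4-2 rose in 6.12% and fell in 15.6%, and those that rose gave 7.7% and 8.03%. Saturation genes that fell in C4-2 rose in 5.04% and fell in 21.0%, and those that rose gave 8.25% and 6.8%. Among named genes, DDIT3 rose there (1.21, adjusted p = 3.54e-10), KLK3, KLK2 and SPDEF fell (-1.75, -1.71 and -1.48), while ATF3, HSPA5 and FAS had changes of -0.23, 0.21 and -0.01 that missed the threshold and BBC3 fell by 1.01. UHRF1 and XPC fell slightly (-0.51 and -0.58). Without single-inhibitor libraries no interaction could be computed there. The header of 1 of these combination files names an input with namoline alone, and the difference between the lines was not tested. In the libraries labelled LNCaP the mesenchymal gene VIM stood at 635 to 778 CPM and CDH1 at 34.2 to 48.8, against VIM at 1.09 to 4.42 CPM and CDH1 at 560.3 to 1047 in the C4-2 libraries (CPM by library total here), so the former went against their label.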

How the data were processed

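Polyadenylated RNA was sequenced in paired ends. The authors trimmed reads (Trim Galore, cutadapt), checked them (FastQC) and aligned them to GRCh38 (STAR), and per the file headers the deposited whole counts per gene were made by featureCounts 1.5.0-p1, 1 library per file, unnormalised and without a strand option. Overlapping genes on the 2 strands were thus counted without separation, and multi-mapping reads were left out by default. Of 60675 genes listed, 56558 received a symbol here. C4-2 totals of 14791602 to 20295282 counts set the precision of low genes.

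The 8 C4-2 libraries were fitted together in edgeR 4.0.16 (R 4.3.3) with a group term, filterByExpr, TMM scaling and the robust quasi-likelihood F test, adjusted by Benjamini-Hochberg across every gene in the fit. Every p-value in the text comes from such fits, and SE is the absolute log2 value over the square root of F. The 4 libraries labelled LNCaP were fitted apart. CPM used TMM factors over the 8 libraries. The steps were tested on simulated data. Principal components used log2(CPM + 1).

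The members and gene lists were chosen with earlier results of these data known. Named were KDM1A, KDM7A and their relatives PHF8 and KDM2A, the 5 genes of largest interaction in each direction of reversal, synergy and saturation with a symbol and at least 10 CPM in the highest group, and the 4 largest interactions in each list, of which the text gives a part. Other list members were chosen after their values were seen, for their known roles. A few items that the rule picks are not reported here. Alternatives were another scaling, no filter, DESeq2 1.42.0, a likelihood ratio test, a replicate block, a lowess GC correction, other pattern thresholds and leaving out each library.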

Additional observations from a re-analysis of the deposited data

Results flagged for a closer look

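The effect of namoline differed with and without TCE-5002 by the test of the interaction itself in 6255 genes (edgeR's quasi-likelihood F test, adjusted p under 0.05 and at least 2-fold), 2966 above additivity and 3289 below it. These are the genes sorted in the report, and the groups of 2 libraries were too small for a search for outlying samples.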

How the results depend on the processing

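The count of 6255 interaction genes was 9489 by adjusted p alone and stayed between 5693 (DESeq2) and 6585 (likelihood ratio test) with other scaling, filter, test or GC correction. Leaving out 1 library, with the lone library of that group assumed to vary like the other groups, gave 5755 to 6617. The 3 sorted patterns were less stable. Reversal (743) came to 1153 with GC correction, 1202 with GC correction and block, 46 when every effect had to be 2-fold, 3798 by signs alone and 244 to 1277 with 1 library left out. Synergy (1425) came to 190 by signs alone and to 1204 to 1571 with 1 library left out. Saturation (521) came to 226 with 2-fold effects, 1512 by signs alone and 296 to 700 with 1 library left out. The cause was not tested beyond what signs alone and 2-fold effects do by construction. With 1 library left out the counts were 1485 to 2436 for namoline, 1507 to 2359 for TCE-5002, 3217 to 4271 for the combination, 2732 to 3302 for the combination against both single inhibitors, and 2851 to 3604 in the fit of the libraries labelled LNCaP.

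Same-numbered libraries were not treated as pairs, because deviations correlated at -0.03 for namoline with the combination and at up to 0.50 elsewhere. With the replicate number as a block the interaction count was 6309, reversal 1013, synergy 1308 and saturation 589. Library totals alone in place of TMM moved the median interaction of all genes from -0.01 to 0.11 and the share of calls above additivity from 47.42% to 53.86%. Of 30 genes named for their size within a pattern, 18 kept that pattern in all 16 alternatives. Of 150 named genes under 16 alternatives, 2365 values kept their direction and their side of an adjusted p of 0.05. The adjusted p rose past 0.05 in 25, fell under it in 5, all of PHF8 at less than 2-fold, and the sign changed in 5, of KDM2A and SYP, which were not called. With 1 library left out, KDM2A ranged from -0.0533 to 0.063 and SYP from -0.0111 to 0.884. In groups of 2 libraries the spread of a gene rests largely on that of other genes, and levels below 1 CPM rest on few reads.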
